A study of Drosophila mojavensis with 127 samples.

Results

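Flies of Punta Prieta, a Baja California population of Drosophila mojavensis, were compared after rearing on fermenting organ pipe cactus (Stenocereus thurberi) and after rearing on fermenting agria cactus (Stenocereus gummosus). The members were the arrays titled PP, 30 of the 127 arrays of the series, and fell into 8 groups by host, sex and mating status. The females comprised 4 mated and 3 nonmated replicates on organ pipe, and 4 mated and 4 nonmated replicates on agria. The males comprised 4 mated and 4 nonmated replicates on organ pipe, and 3 mated and 4 nonmated replicates on agria. All were wild-type flies of the laboratory stock labelled PP08, so the 30 arrays stand for 1 stock of the locality; tissue and age are not stated in the labels. The series treated 3 further populations in the same way: Punta Onah in Sonora, Organ Pipe National Monument in Arizona and San Quintin in Baja California.

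Drosophila mojavensis breeds in rotting cactus, and the larvae feed on the decaying plant tissue together with its yeasts and bacteria. Agria is the usual host in Baja California and organ pipe the usual host on the mainland, so organ pipe is the less usual substrate for the Punta Prieta stock. Rots of different cacti differ in their microbes and plant chemicals, and detoxification enzymes such as cytochrome P450s are known in this species to respond to the host. The files identify transcripts by number only and pair no number with a gene name, so functions cannot be given below.

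Total RNA was labelled with Cy3 and hybridised to single-colour NimbleGen arrays, 1 sample per array, and the values are log2 expression values of 14528 transcripts. A difference of 1 on this scale is a 2-fold difference. The host difference of a transcript is the organ pipe value minus the agria value, taken within mated and within nonmated flies and averaged, and is given with its standard error (SE) from limma. A transcript was called when its p-value, adjusted over all 14528 transcripts by the Benjamini-Hochberg method, was under 0.05. Whether the replicates were raised in separate cultures is not stated, and all p-values refer to the spread among these samples only, part of which may be technical.

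The labelled sex was checked with an index: the average of the 200 transcripts with the strongest male bias, less the average of the 200 with the strongest female bias, both sets chosen on the other 3 populations. It lay between -4.92 and -4.24 in organ pipe females and between -4.75 and -4.18 in agria females of Punta Prieta. In males it lay between 4.68 and 4.97, with 1 exception. Replicate 1 of the nonmated males on organ pipe had an index of 2.76, against 4.68 to 4.88 for the other 3 arrays of its group. The difference came from the female-biased transcripts, whose mean was 10.49 on that array and 8.49 to 8.64 on the others of its group, while the mean of the male-biased transcripts was 13.25 on that array and 13.32 to 13.37 on the others. The main counts, correlations and list shares of males are therefore also given without this array. In the other populations 1 male array lay still nearer to females: replicate 1 of the mated agria males of Organ Pipe National Monument had an index of 0.994 and a mean of 11.44 over the female-biased transcripts, against 3.74 to 4.99 for the index of the other male arrays. It enters the comparisons with that population and the choice of lists. The main counts and the correlations of those comparisons in males are also given without it. Of the lists, only that lower in mated than in nonmated males is also given as chosen without it. Arrays of 1 group correlated at a mean r of 0.956 to 0.995 with each other across transcripts, and no 2 arrays held identical values.

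In females, 2 of 14528 transcripts (0.0138%) passed the test of host, and both were higher on organ pipe. FBtr0166694 had log2 values of 8.14, 7.89, 7.68 and 7.37 in mated and 8.00, 7.59 and 7.53 in nonmated organ pipe females. The agria females had 7.03, 6.84, 7.40 and 7.26 when mated and 6.94, 6.67, 6.76 and 6.18 when nonmated. The nonmated groups did not overlap, and among mated females the lowest organ pipe array lay just under the highest agria array. The host difference was 0.85 ± 0.17, a 1.81-fold higher value on organ pipe (limma, adjusted p = 0.0274).

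FBtr0164677 had 9.61, 8.96, 8.48 and 7.80 in mated and 9.91, 8.84 and 8.84 in nonmated organ pipe females. The agria females had 7.51, 8.24, 8.10 and 7.31 when mated and 7.50, 8.38, 8.49 and 7.29 when nonmated. The highest agria value exceeded the 2 lowest organ pipe values, both from mated females, and the nonmated groups did not overlap. The difference was 1.10 ± 0.23, or 2.15-fold (limma, adjusted p = 0.0394), with 0.92 in mated and 1.28 in nonmated females. Its SE rests on a spread pooled over both sexes and all populations. Within Punta Prieta groups the SD of this transcript was 0.45 to 0.76 in females and 0.12 to 0.30 in males. The pooled SE may therefore be too small for the females. In males the host difference was -0.17 ± 0.17 for FBtr0166694 and 0.16 ± 0.23 for FBtr0164677, each with a limma adjusted p of 1.00 (-0.16 and 0.14 without the 1 male array). For FBtr0166694 this averaged -0.62 in mated and 0.29 in nonmated males (0.30 without the 1 array). Its values in mated males ran from 6.54 to 7.24 on organ pipe and from 7.38 to 7.64 on agria, without overlap. FBtr0164677 had 0.17 in mated and 0.14 in nonmated males. Limma called 0 transcripts for host in mated males. The sexes were not shown to differ, since the test of male minus female host difference gave -1.02 ± 0.24 for FBtr0166694 (limma, adjusted p = 0.631) and -0.95 for FBtr0164677 (limma, adjusted p = 0.881).

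**Figure D1:**
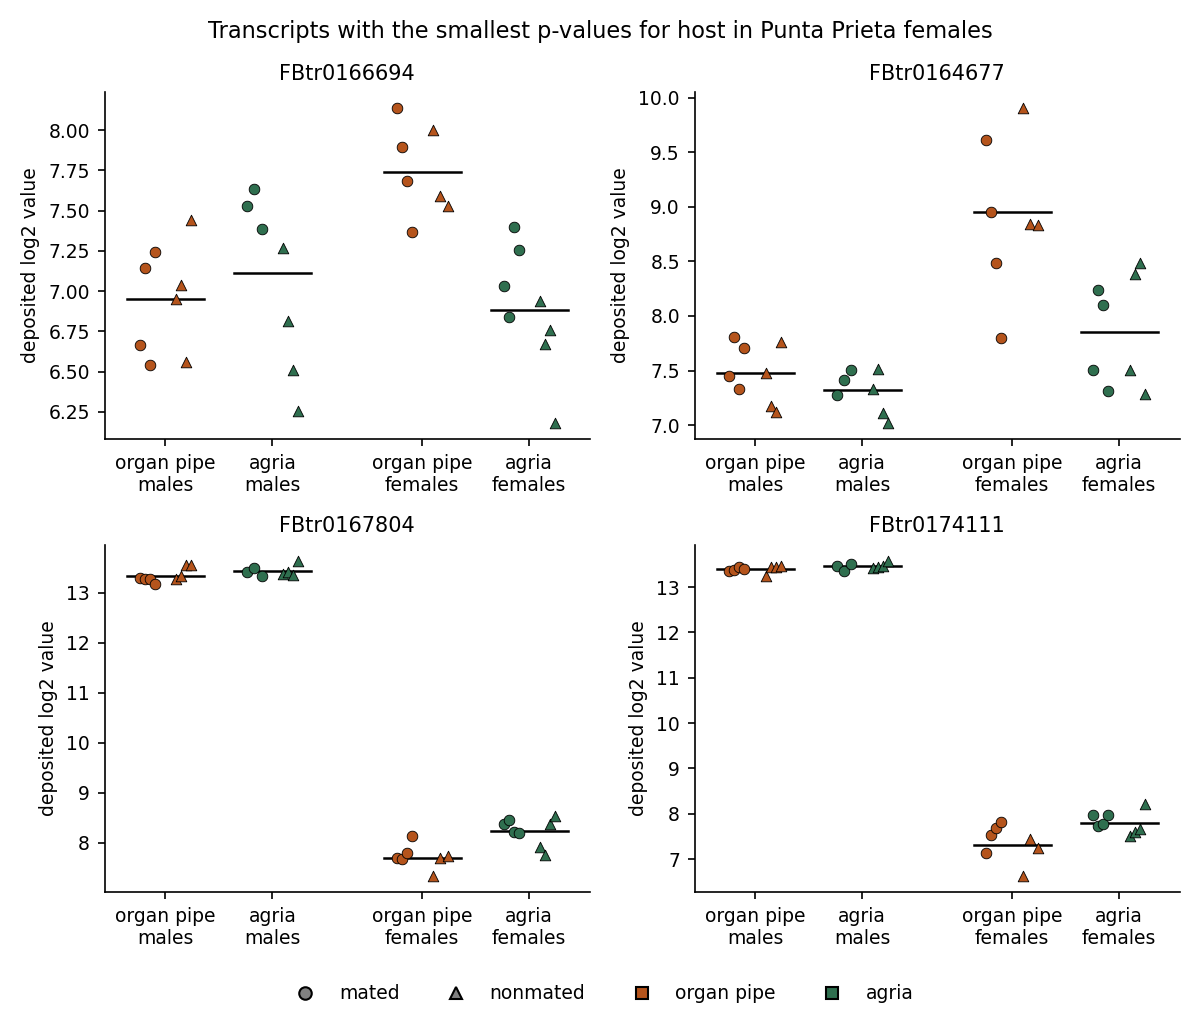
Deposited log2 values of the 4 transcripts with the smallest p-values for host in Punta Prieta females, 2 per direction, with 1 point per array (circles mated, triangles nonmated, orange organ pipe, green agria). Bars are means that weight mated and nonmated flies equally, and each panel has its own vertical axis. The 2 upper transcripts are higher in organ pipe than in agria females, by 0.85 and 1.10, and the 2 lower ones, which are near 13 in males, are lower in organ pipe females by 0.52 and 0.48 and were not called.

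No transcript passed as lower on organ pipe in females. The 2 with the smallest p-values in that direction were transcripts that are far higher in males, by 5.33 and 5.83 in the other 3 populations. FBtr0167804 ran from 7.33 to 8.14 with a median of 7.69 in organ pipe females, against 7.75 to 8.54 with a median of 8.29 in agria females. Its difference was -0.52 ± 0.12 (limma, adjusted p = 0.0540). FBtr0174111 ran from 6.62 to 7.82 with a median of 7.44 in organ pipe females, against 7.51 to 8.21 with a median of 7.75 in agria females, a difference of -0.48 ± 0.12 (limma, adjusted p = 0.0835). The groups overlapped for both. In males the same transcripts lay between 13.17 and 13.64 on both hosts, with host differences of -0.09 and -0.06.

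Both calls in females rest on few arrays and on dim transcripts. By mean level over all arrays, FBtr0166694 stood at percentile 2.44 and FBtr0164677 at percentile 7.20 of the 14528 transcripts, and without the 25% dimmest transcripts, which removes both, 0 were called with limma (957 at an unadjusted p under 0.05). With the replicate number as a block, in a fit to Punta Prieta arrays alone, 3 transcripts were called but neither of these. The limma adjusted p was 0.0624 for FBtr0166694 and 0.101 for FBtr0164677. The fit to Punta Prieta arrays alone without the block also called 3. In the main fit to all groups, with all transcripts, the number called was 0 without replicate 1 or 2 of the mated or replicate 1 of the nonmated organ pipe females. It was also 0 without replicate 1 of the mated or replicate 4 of the nonmated agria females. It was 74 without replicate 2 of the nonmated agria females and 46 without replicate 4 of the mated organ pipe females. It was 0 after quantile normalization, 17 in a fit to females alone and 763 with array weights.

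Below the threshold, 1454 transcripts (10.0%) had an unadjusted p under 0.05 in females, against 5% expected on average without any difference. Of these, 1058 were higher and 396 lower on organ pipe, but this split turned with the scaling of the arrays: it was 707 higher and 759 lower after quantile normalization, and 440 higher and 1299 lower when every array was shifted to the same median. The median host difference over all transcripts was 0.04 as deposited and -0.05 after that shift. The array medians themselves differed between hosts. They ran from 10.47 to 10.57 in organ pipe females and from 10.28 to 10.52 in agria females, a difference of 0.088 with an exact permutation p of 0.0143 (two-sided, host labels permuted within mating status, n = 7 and 8), which became 0.0502 after adjustment over the 6 array measures tested. The part of this shift in the balance of higher and lower values was not tested beyond these scalings.

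Without overlap between all 7 organ pipe and all 8 agria arrays of females, 15 transcripts were higher and 0 lower on organ pipe as deposited (0.103% of all). The count was 10 higher and 6 lower after quantile normalization and 7 higher and 11 lower after the median shift. The precision of a single transcript was moderate: the median SE was 0.143, and 98.3% of transcripts had a 95% interval for the female host difference that lay wholly within 2-fold in either direction.

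In males, 0 of 14528 transcripts (0%) passed the test of host with limma, and 384 (2.64%) had an unadjusted p under 0.05. Without the array that lies toward females the numbers were 0 and 325 (2.24%). Both shares lay below the 5% expected on average without any difference. The smallest adjusted p was 1.00 in both fits, and the 95% interval lay within 2-fold for 99.4% of transcripts with all arrays and for 99.3% without that array. These intervals are for the average of mated and nonmated males, which can hide opposite differences. Within mated males alone, with fewer arrays, the interval lay within 2-fold for 88.2% of transcripts. Within nonmated males alone it did so for 95.3%, or 95.9% without that array. With array weights, by contrast, 2276 transcripts were called with all arrays and 2495 without the 1 array; the estimation of those weights stopped before it converged.

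The transcript with the smallest p-value among those higher in organ pipe males, FBtr0162974, had 7.79, 8.00, 7.55 and 7.31 in mated and 9.56, 7.22, 7.89 and 8.57 in nonmated organ pipe males. The agria males had 7.48, 7.69 and 7.13 when mated and 6.54, 6.95, 6.65 and 7.15 when nonmated. The nonmated groups did not overlap and the mated groups did; the highest value, 9.56, came from the array that lies toward females. The difference was 0.86 ± 0.23 with all arrays (limma, adjusted p = 1.00) and 0.65 without that array. FBtr0170807 reached 12.26 on the same array and otherwise ran from 8.26 to 11.25 in organ pipe males, against 7.49 to 8.75 in agria males. Its difference was 1.80 ± 0.48 with all arrays (limma, adjusted p = 1.00) and 1.40 without that array.

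In the other direction, FBtr0166053 ran from 5.31 to 5.98 in organ pipe males and from 5.53 to 7.28 in agria males, a difference of -0.62 ± 0.20. FBtr0165690 ran from 6.14 to 6.74 in organ pipe males and from 6.37 to 7.32 in agria males, a difference of -0.39 ± 0.12. Both overlapped between hosts and had a limma adjusted p of 1.00. The same pair had the smallest p-values of the lower transcripts without the 1 array, at -0.68 and -0.43. Among the higher transcripts without that array, the smallest p-values belonged to FBtr0166196 (0.48 ± 0.14) and FBtr0164467 (0.53 ± 0.16), neither of them called (limma, adjusted p = 1.00). Between all arrays of the 2 hosts, 2 transcripts of males (0.0138% of all) did not overlap with organ pipe higher and 0 with organ pipe lower. Without the 1 array the counts were 4 (0.0275% of all) and 0. These counts also depended on scaling, with 1 higher and 7 lower for all male arrays after quantile normalization. Without the 1 array they were then 2 higher and 8 lower.

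**Figure D2:**
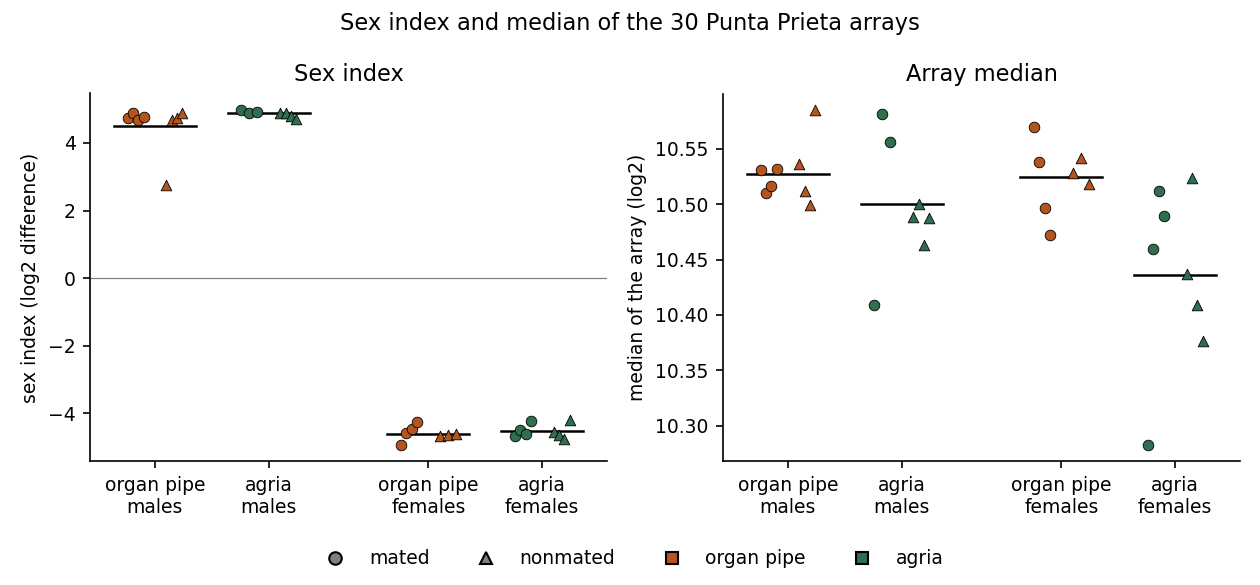
Sex index (left) and median (right) of the 30 Punta Prieta arrays on the log2 scale, with 1 point per array, by host and sex (circles mated, triangles nonmated); bars weight mated and nonmated flies equally. The single male array at 2.76 is replicate 1 of the nonmated organ pipe males, and organ pipe females have medians of 10.47 to 10.57 against 10.28 to 10.52 in agria females.

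The sex index was lower in organ pipe than in agria males by 0.358 (exact permutation p = 0.0167, two-sided, n = 8 and 7; 0.0502 after adjustment over the 6 tests), and by 0.108 without the 1 array (exact permutation p = 0.0376; 0.113 after adjustment). In females it differed by -0.087 (exact permutation p = 0.450). Averaged over mating status, the spread of values within an array (SD) showed no host difference beyond replicate error in either sex. It differed by 0.023 in females (exact permutation p = 0.441) and -0.027 in males (exact permutation p = 0.257), or -0.034 without the 1 array (exact permutation p = 0.140). Such an average can hide opposite differences. In mated males the SD ran from 1.90 to 1.92 on organ pipe and from 1.96 to 1.99 on agria, without overlap. In nonmated males it ran from 1.86 to 1.98 on organ pipe and from 1.86 to 1.92 on agria. The SD was not tested within mating status.

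Taking both sexes together called 0 transcripts with limma, with 956 (6.58%) at an unadjusted p under 0.05 and a smallest adjusted p of 0.237. Without the 1 male array limma also called 0, with 895 (6.16%) at an unadjusted p under 0.05 and a smallest adjusted p of 0.273. FBtr0164467 came nearest. In females it ran from 8.49 to 9.04 on organ pipe and from 7.87 to 8.74 on agria, and in males from 9.26 to 10.12 on organ pipe and from 8.47 to 9.63 on agria. The hosts overlapped in each sex, while the host difference was of similar size in both, 0.43 in females and 0.53 in males (mean 0.48 ± 0.11, limma, adjusted p = 0.237). FBtr0171045 had a mean difference of 0.53 ± 0.12 (limma, adjusted p = 0.237), with 0.70 in females and 0.36 in males. FBtr0165381 was the first of the lower transcripts at -0.50 ± 0.12 (limma, adjusted p = 0.237), with -0.53 in females and -0.47 in males, and FBtr0167804 followed at -0.30 ± 0.09 (limma, adjusted p = 0.504). Without the 1 male array the mean differences of these 4 transcripts were 0.48, 0.52, -0.46 and -0.29 in the same order.

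The test of whether host acted differently in males and females also called 0 transcripts with limma. At an unadjusted p under 0.05 there were 748 (5.15%, smallest adjusted p 0.631), near the 5% expected on average without any difference. Without the 1 male array 0 were called with limma and 754 (5.19%) had an unadjusted p under 0.05 (smallest adjusted p 0.899). Beside FBtr0166694, the smallest p-value among transcripts with a lower male than female host difference belonged to FBtr0165918 at -0.99 ± 0.24 (limma, adjusted p = 0.655). FBtr0162264 had the smallest in the other direction, 0.95 ± 0.25 (limma, adjusted p = 0.881). It ran from 7.62 to 9.57 in organ pipe males against 7.24 to 8.67 in agria males, and from 7.75 to 9.08 in organ pipe females against 8.28 to 9.74 in agria females, so that hosts overlapped in each sex. FBtr0161225 followed at 0.61 ± 0.17 (limma, adjusted p = 0.881). Without the 1 male array FBtr0162264 had 0.75 and FBtr0161225 had 0.64, and FBtr0166694 and FBtr0165918 had -1.01 and -0.96. Across the 14528 transcripts the male and female host differences correlated at r = -0.08, and at r = -0.12 without the 1 male array.

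The host was then compared separately in mated and nonmated flies. Across transcripts, the host differences of mated and nonmated males, which share no array, correlated at r = -0.36, and at -0.30 without the 1 array. In females they correlated at r = 0.37. The same correlation in the other populations was 0.59 in Punta Onah males, 0.31 in Organ Pipe National Monument males (0.40 without the array of that population that lies toward females) and 0.04 in San Quintin males. These are descriptions, since transcripts measured on the same arrays are not independent. Host by mating accounted for 14.6% of the variation among Punta Prieta male replicates over all transcripts and host for 7.38%, or 13.3% and 8.28% without the 1 array, against 4.82% and 10.6% in females. No single transcript passed the limma test of host by mating in males, with or without the 1 array, or in females (0 called in each). In males 1306 (8.99%) had an unadjusted p under 0.05 (limma, smallest adjusted p 0.260). Without the 1 array 851 (5.86%) did (limma, smallest adjusted p 0.671). In females 312 (2.15%) did (limma, smallest adjusted p 1.00), against 5% expected on average without any difference. With the replicate number as a block, in a fit to Punta Prieta arrays alone, 1 transcript was called in males, and 0 in that fit without the block. With array weights 502 were called.

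**Figure D3:**
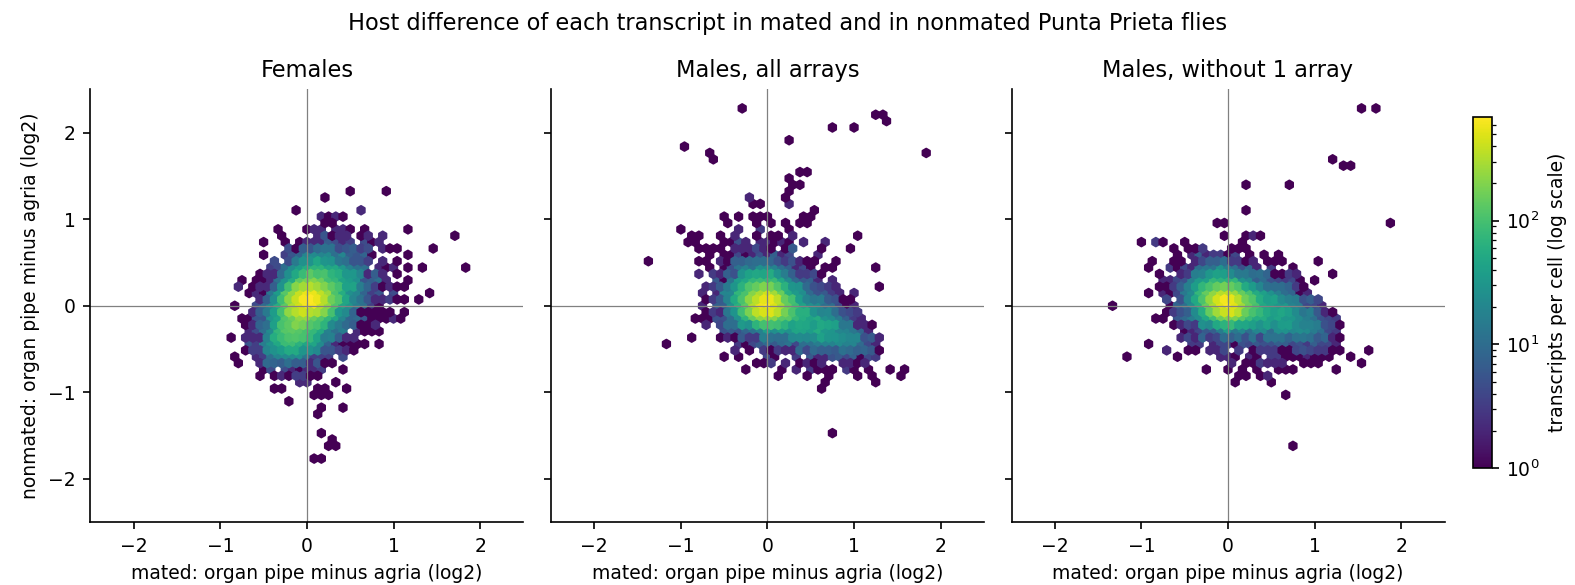
Host difference (organ pipe minus agria, log2) of 14528 transcripts in mated flies (horizontal) and nonmated flies (vertical) of Punta Prieta, for females, for all male arrays and for males without replicate 1 of the nonmated males on organ pipe; colour gives the number of transcripts per cell on a log scale. The cloud rises to the right in females (r = 0.37) and falls to the right in males (r = -0.36, or -0.30 without the 1 array), with a tail of transcripts higher on organ pipe in mated males.

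Within each mating status 0 transcripts were called with limma in either sex. At an unadjusted p under 0.05 there were 1049 (7.22%) in mated and 753 (5.18%) in nonmated females. There were 1196 (8.23%) in mated and 508 (3.50%) in nonmated males, and the last number was 207 (1.42%) without the 1 array. The share expected on average without any difference is 5%. Of the 1196 in mated males, 1091 were higher on organ pipe as deposited, and this split was not counted under the other scalings. For host by mating in males, the split at an unadjusted p under 0.05 was 1052 higher and 254 lower as deposited. Without the 1 array it was 668 higher and 183 lower. With all arrays the split was 593 and 392 after quantile normalization, and 1139 and 190 after the median shift.

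Lists of transcripts chosen on the other 3 populations, with no Punta Prieta array, gave a further view of the 2 mating states. The 208 transcripts that were lower on organ pipe in San Quintin males were higher on organ pipe in 92.8% of cases in mated Punta Prieta males (median difference 0.15), against 53.5% of all transcripts (median 0.02). In nonmated males 32.7% were above 0, with a median of -0.06, against 51.4% and 0.00 for all transcripts; without the 1 array these were 28.4% and -0.08, against 56.0% and 0.02. The 281 transcripts lower in mated than in nonmated males elsewhere behaved similarly. Of these, 76.5% were above 0 in mated males and 12.8% in nonmated males of Punta Prieta (27.4% without the 1 array), with medians of 0.08 and -0.12 (-0.08 without the 1 array). Chosen without the Organ Pipe National Monument array that lies toward females, this list held 203 transcripts. Among them 81.8% were above 0 in mated and 12.3% in nonmated males (27.6% without the 1 Punta Prieta array). The sign of these medians stayed the same after quantile normalization and after the median shift, and none of the members was called in Punta Prieta males.

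In females, the list whose median lay farthest from that of all transcripts came from Punta Onah. The 281 transcripts called lower on organ pipe in Punta Onah females, with a median of -0.63 there, had a median of 0.25 in Punta Prieta females, and 94.3% of them were above 0, against 58.7% of all transcripts (median 0.04). The share was 87.5% after quantile normalization and 80.1% after the median shift, and 88.3% to 98.2% when each female array was left out in turn. By array, the mean of this list ran from 10.66 to 11.25 in organ pipe females and from 10.31 to 11.33 in agria females of Punta Prieta, so the hosts overlapped. None of these transcripts was called in Punta Prieta females. The 477 transcripts lower on organ pipe in San Quintin females gave 82.6% above 0 and a median of 0.14 in Punta Prieta females. The 1010 transcripts lower in mated than in nonmated females elsewhere gave 81.9% and 0.15. The medians of both lists stayed above 0 under the 2 other scalings.

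Sex-biased transcripts were described in the same way; the lists hold those called for sex in the other 3 populations with a difference over 2-fold. Of 2250 male-biased transcripts, 35.8% were above 0 in Punta Prieta females (median -0.08) and 20.4% in males (median -0.06), or 28.7% and -0.04 in males without the 1 array; the medians were below 0 under every scaling. Of 2900 female-biased transcripts, 70.4% were above 0 in females with a median of 0.06, which turned to -0.03 after the median shift. In males 76.0% were above 0 with a median of 0.07, and 64.8% with a median of 0.04 without the array that lies toward females. That last median was 0.00 after quantile normalization.

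**Figure D4:**
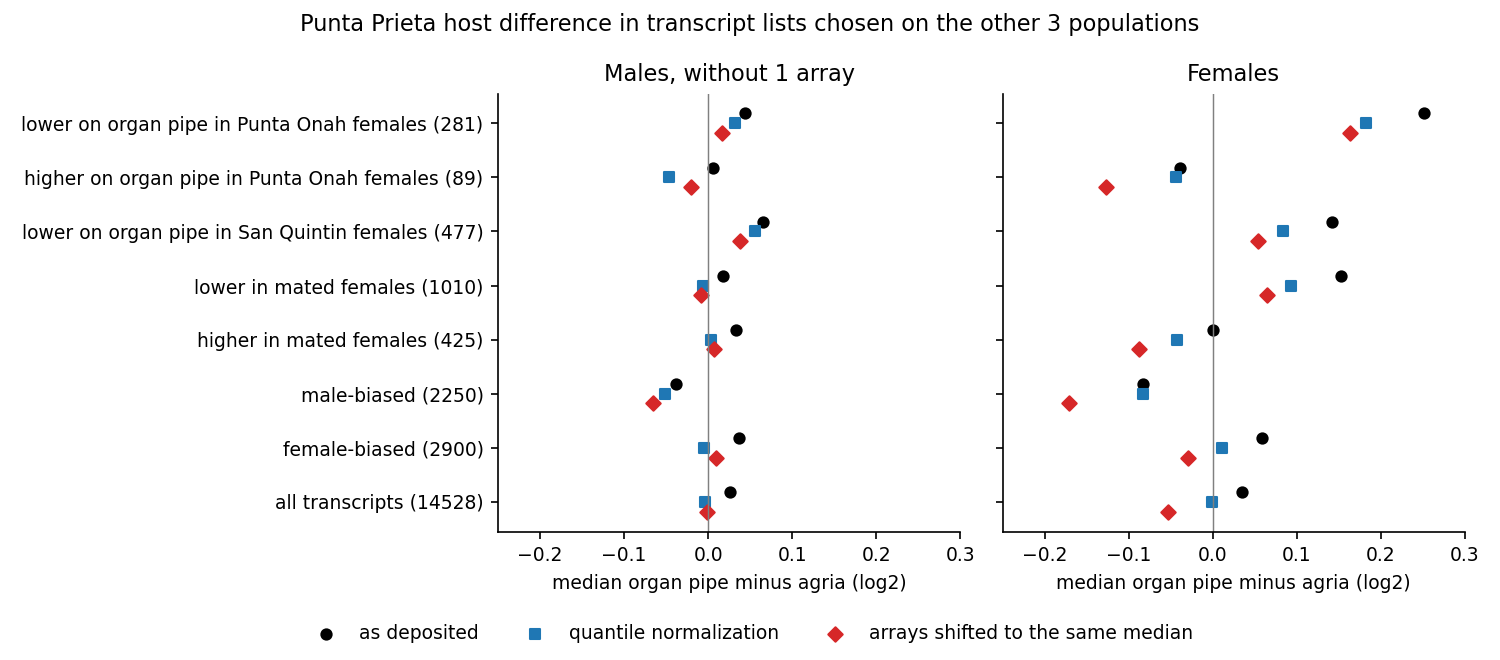
Median host difference (organ pipe minus agria, log2) in Punta Prieta males without 1 array (left) and females (right) of lists of transcripts chosen on the other 3 populations, list size in brackets, as deposited (circles), after quantile normalization (squares) and after a shift of every array to the same median (diamonds). The list lower on organ pipe in Punta Onah females has medians of 0.25, 0.18 and 0.16 in Punta Prieta females, while the female-biased list changes sign there with the scaling.

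The host difference of Punta Prieta was then set against the mean host difference of the other 3 populations. In females 593 transcripts (4.08%) differed (limma, adjusted p under 0.05), of which 512 (3.52%) had a higher and 81 (0.558%) a lower host difference in Punta Prieta. The 512 were all above 0 in Punta Prieta, with a median of 0.39, against medians of -0.34 in Punta Onah, -0.08 in Organ Pipe National Monument and -0.33 in San Quintin. The 81 were all below 0 in Punta Prieta, with a median of -0.42, against 0.24, 0.15 and 0.19. Of the 81 transcripts 49 were male-biased and 2 female-biased, and of the 512 transcripts 65 were male-biased and 17 female-biased, where the male-biased list holds 2250 and the female-biased list 2900 of all 14528. These medians describe transcripts selected for this difference and support nothing further.

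The number and the direction of these calls depended on scaling and on single replicates. Quantile normalization gave 364 calls, 251 higher and 113 lower. The median shift gave 797, 227 higher and 570 lower, and moved the median of all transcripts in this comparison to -0.11, against 0.02 as deposited. The count was 9 without replicate 1 of every group and 34 without replicate 4. Leaving out a single Punta Prieta female array gave 182 (replicate 1 of the mated organ pipe females) to 1259 (replicate 2 of the nonmated agria females).

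Both transcripts called in Punta Prieta females were among the 593. FBtr0164677 had a host difference 1.40 ± 0.26 above the mean of the others (limma, adjusted p = 0.00379), with -0.55 in Punta Onah, -0.38 in Organ Pipe National Monument and 0.03 in San Quintin females, none of them called. FBtr0166694 was 0.84 above it (limma, adjusted p = 0.00748), with 0.13, -0.17 and 0.10 in the same order of populations. FBtr0167804 was -0.83 ± 0.14 from the mean of the others (limma, adjusted p = 0.000740); it had 0.19 in Punta Onah, 0.21 in Organ Pipe National Monument and 0.53 in San Quintin females, the last of which was called (limma, adjusted p = 0.00629). FBtr0174111 was -0.70 ± 0.14 from it (limma, adjusted p = 0.00379). FBtr0167626, named after its values were seen, ran from 9.20 to 10.47 in organ pipe and from 8.42 to 9.91 in agria females of Punta Prieta, which overlapped. Its host difference of 0.76 was 1.08 ± 0.21 above the mean of the others (limma, adjusted p = 0.00379).

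In males 11 transcripts (0.0757%) differed from the mean of the other populations, all with a higher host difference in Punta Prieta, and 12 (0.0826%) without the 1 array. The number was 13 (0.0895%), the same 11 among them, without the Organ Pipe National Monument array that lies toward females, and 16 (0.11%) without both arrays. The medians of the 11 were 0.40 in Punta Prieta, -1.14 in Punta Onah, -0.19 in Organ Pipe National Monument (-0.28 without its 1 array) and -0.11 in San Quintin males. The 11 were selected for this difference, so their medians support nothing further. Punta Onah lay farthest from Punta Prieta among them. FBtr0165626, named after its values were seen, ran from 6.71 to 7.41 in organ pipe males and from 5.93 to 7.29 in agria males of Punta Prieta, with much overlap. Its host difference of 0.50 was 1.17 ± 0.21 above the mean of the others (limma, adjusted p = 0.00351), with -1.38 in Punta Onah males. FBtr0165505, chosen in the same way, was 0.91 ± 0.17 above it (limma, adjusted p = 0.00421), with 0.12 in Punta Prieta and -1.52 in Punta Onah males. The count was 0 after quantile normalization, 0 without replicate 2 of the mated agria males and 24 without replicate 4 of the nonmated organ pipe males.

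Against single populations, the female host difference of Punta Prieta differed for 920 transcripts (6.33%) from Punta Onah, 46 (0.317%) from Organ Pipe National Monument and 730 (5.02%) from San Quintin (limma). The male host difference differed for 2800 (19.3%), 8 (0.0551%) and 99 transcripts (0.681%) in the same order, and for 2874 (19.8%), 0 (0%) and 1 (0.00688%) without the 1 array. Without the 1 Organ Pipe National Monument array, 0 (0%) differed from that population as well. Across transcripts the Punta Prieta female host difference correlated at r = -0.50 with that of Punta Onah, -0.31 with Organ Pipe National Monument and -0.28 with San Quintin females. In males the correlations were -0.12, 0.27 and -0.33, and -0.19, 0.42 and -0.36 without the 1 array. The correlation with Organ Pipe National Monument males was 0.39 without that population's array that lies toward females and 0.46 without both arrays. The arrays of different populations share no control samples.

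The size of the host effect, averaged over mating status, was also set against the spread between replicates of each population. Over all transcripts the mean square for host was 1.27 times the residual mean square in males (1.40 without the 1 array) and 1.60 times in females. In Punta Onah it was 7.95 times in males and 3.47 in females, in Organ Pipe National Monument 1.87 (2.04 without its 1 array) and 1.25, and in San Quintin 1.95 and 2.43. The ratio for host by mating was 2.52 in Punta Prieta males (2.25 without the 1 array) and 0.72 in its females. With all arrays it was 3.10 in males and 1.38 in females of Punta Onah. For Organ Pipe National Monument it was 0.997 and 0.73, and for San Quintin 1.86 and 2.03. The same limma fit called 0 transcripts for host in Punta Prieta males and 2 in its females. It called 5363 (36.9%) in Punta Onah males, 1756 (12.1%) in Organ Pipe National Monument males (1647, or 11.3%, without the array that lies toward females) and 706 (4.86%) in San Quintin males, and 542 (3.73%), 1 (0.00688%) and 677 (4.66%) in the females.

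**Figure D5:**
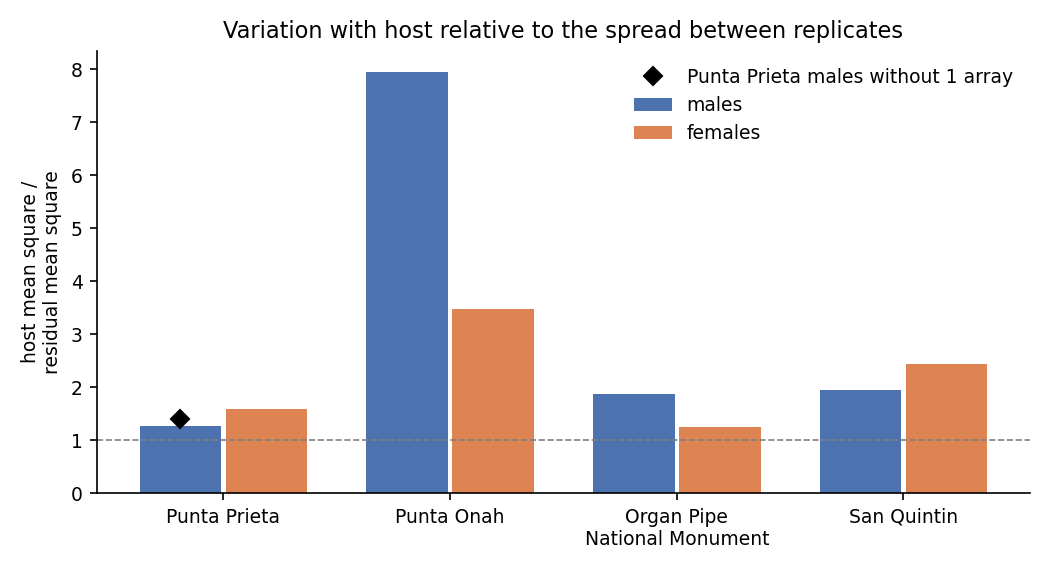
Mean square for host divided by the residual mean square, summed over all transcripts, in males (blue) and females (orange) of the 4 populations; the diamond is Punta Prieta males without 1 array and the dashed line marks equality. Punta Prieta stands at 1.27 in males and 1.60 in females, against 7.95 in Punta Onah males. Host is averaged over mating status, and host by mating is not shown.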

How the data were processed

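The deposited values are log2 expression values that the authors made with RMA, which corrects background, normalizes between arrays and summarises probes, per the submitters' processing notes; no version is named there, and genome build and scanner steps are not given in the sources used here. That the scale is log2 was read from the values, which ran from 4.64 to 15.78. The series text counts 128 hybridizations; 127 arrays and 14528 transcripts were analysed. None of the identifiers (0) matched the RefSeq gene table of assembly ASM1815372v1.

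In San Quintin, 4 pairs of arrays that share a replicate number were averaged, which left 123 replicates. One mean for each of 32 groups was fitted with limma 3.58.1 in R 4.3.3 (lmFit, contrasts.fit, eBayes; 91 residual degrees of freedom), two-sided, with Benjamini-Hochberg adjustment over all transcripts. All groups share 1 estimate of the spread because single groups have 3 or 4 replicates. The named transcripts have the 2 smallest p-values in each direction of a comparison; those named for the comparison with other populations were chosen after their values were seen. The members and lists were chosen with earlier results of these data known. Array measures were tested by exact permutation of host labels within mating status (2450 arrangements; smallest p 0.000408).

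The number of arrays limits the precision. Alternatives covered the scaling between arrays, a filter on dim transcripts, the arrays and samples in the fit, array weights, the variance prior and the replicate number; leaving out the Organ Pipe National Monument male array that lies toward females was chosen after seeing the data.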

Additional observations from a re-analysis of the deposited data

Results flagged for a closer look

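Within groups of 4 Punta Prieta arrays, 6 of 138 sets of values had 1 array standing apart from the rest by Dixon's gap criterion. Chance meets this criterion in about 1 in 20 groups, so the number flagged was not above that rate. Of the 6, 3 were on replicate 1 of the nonmated organ pipe males, which was known beforehand to lie toward females. That array had a sex index of 2.76, where the others of its group had 4.68 to 4.88, a value of 13.25 for FBtr0174111 (others 13.45 to 13.46) and of 6.63 for FBtr0165381 (others 7.25 to 7.32). FBtr0165918 stood apart at 8.27 on replicate 1 of the mated organ pipe females (others 6.95 to 7.02) and at 7.16 on replicate 4 of the nonmated organ pipe males (others 6.34 to 6.39). FBtr0165381 stood apart at 9.10 on replicate 1 of the nonmated agria males (others 7.16 to 7.40).

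The host difference of Punta Prieta departed from the mean of the other 3 populations, by the limma test of that difference, for 593 transcripts in females and 11 in males. In females the departure was 0.84 for FBtr0166694, 1.40 for FBtr0164677, 1.08 for FBtr0167626, 0.86 for FBtr0165918 and 0.76 for FBtr0171045. It was -0.83 for FBtr0167804, -0.70 for FBtr0174111 and -0.66 for FBtr0165381. In males it was 1.17 for FBtr0165626 and 0.91 for FBtr0165505.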

How the results depend on the processing

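No transcript named for host in Punta Prieta and no array measure changed sign under the alternatives run. For the array median and the array SD these were only fits without single arrays, and other scalings were not examined. The balance of higher and lower transcripts turned with the median shift. It became 227 higher and 570 lower in the female comparison with the other populations (512 and 81 as deposited). At an unadjusted p under 0.05 for host in females it became 440 and 1299 (1058 and 396 as deposited). Array weights moved the number of transcripts called most: to 763 for host in females (2 as reported), 2276 in males and 2495 without the 1 male array (0 each), 1485 for host by sex, 1099 for both sexes together and 502 for host by mating in males (0 each), and 2553 and 2525 for the female and male comparison with the other populations (593 and 11). The estimation of the weights stopped before convergence, and the cause of these counts was not tested. Host in females gave 0 calls after quantile normalization, 4 after the median shift, 17 in a fit to 1 sex and 0 without the 25% dimmest transcripts, which removes both called transcripts. The comparison with other populations gave 364 in females after quantile normalization; in males it gave 0 after quantile normalization, 4 after the median shift, 0 without dim transcripts, 1 in a fit to 1 sex and 4 with the San Quintin arrays separate. The sex index of males over 500 transcripts in each direction differed by -0.258 between hosts (exact permutation, adjusted p = 0.0294). Over 50 transcripts in each direction it differed by -0.608 (exact permutation, adjusted p = 0.140). After quantile normalization it differed by -0.282 (exact permutation, adjusted p = 0.231), so only the index over 500 transcripts passed the threshold. Each of these values includes the male array that lies toward females.

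Leaving out single arrays or a replicate number gave 0 to 74 calls for host in females, 9 to 1259 and 0 to 24 for the female and male comparison with other populations, 0 to 5 and 0 to 3 for host by mating in females and males, and 0 for host in males, host by sex and both sexes. Host differences ran from 0.0625 to 0.103 for the array median and from -0.139 to -0.026 for the sex index of females, and from -0.462 to -0.108 for the sex index of males, which passed the threshold in 4 of 15 such fits.

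The deviations of same-numbered arrays of the 2 hosts correlated at r from -0.44 to 0.68 (median 0.03) over 14 pairs, of which 6 exceeded 0.1. For other-numbered arrays r ran from -0.57 to 0.52 (median -0.01) over 42 pairs, of which 12 exceeded 0.1. The ranges overlapped widely, and 11 of 30 arrays correlated best with their own number. Whether same-numbered arrays deviate together was not tested, and the numbers were not used to pair samples. With the replicate number as a block in a fit to Punta Prieta arrays alone there were 3 calls for host in females and 1 for host by mating in males. Neither FBtr0166694 nor FBtr0164677 was among the 3. The same fit without the block gave 3 and 0. With the block in the fit to all arrays there were 584 and 11 calls for the female and male comparison with the other populations.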
